A study of Mus musculus with 3 samples.

Results

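The genes described here are 10 adipogenic transcription factors and adipocyte genes, namely Pparg, Cebpa, Cebpb, Cebpd, Lpl, Cd36, Fabp4, Plin1, Adipoq and Lep, taken by name from the 21782 genes of an RNA-seq count table. All 10 were listed in the table. PolyA-selected RNA came from asynchronously growing WT mouse embryonic fibroblasts (MEFs) of 3 clones, with 1 library made from each. MEFs are fibroblasts grown from whole embryos, here of stage E12.5, and kept in medium with fetal serum. For these RNA-seq samples the sources used here name no treatment, no adipogenic inducer and no genotype other than WT, so that levels and their spread between clones are given and no conditions were compared. With 25261357, 22594316 and 24791198 counts in clones 1, 2 and 3, a single count equals 0.0402, 0.0443 and 0.0396 CPM (counts per scaled library size, from the TMM factors of edgeR, expressed per 1e6 counts). At a 1-sided 95% limit, a count of 0 allows up to 3 counts, or 0.121, 0.133 and 0.119 CPM in the same clones. Limits of this kind cover counting error only.

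Adipogenesis is the differentiation of mesenchymal precursors into fat cells, and fibroblasts from mouse embryos can undergo it in culture when given hormonal inducers. C/EBPβ and C/EBPδ, basic leucine zipper factors, act early in this program and activate Cebpa and Pparg. C/EBPα and the nuclear receptor PPARγ, which binds DNA together with RXR, then maintain each other and drive the genes of the fat cell. Among these are genes for the uptake and storage of fatty acids (Lpl, Cd36, Fabp4 and Plin1) and for the hormones adiponectin (Adipoq) and leptin (Lep).

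The regulators were transcribed in every clone, and the genes most restricted to mature fat cells were not detected or nearly so. Of the 10 genes, 7 reached at least 1 CPM in every clone, compared with 52.2% of all genes listed. These were the 4 transcription factors together with Lpl, Cd36 and Fabp4. Plin1 and Lep had 0 counts in all 3 clones, and Adipoq had 2, 0 and 2 counts in clones 1, 2 and 3. Of all genes in the table, 5488 (25.2%) had no count in any clone.

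**Figure D1:**
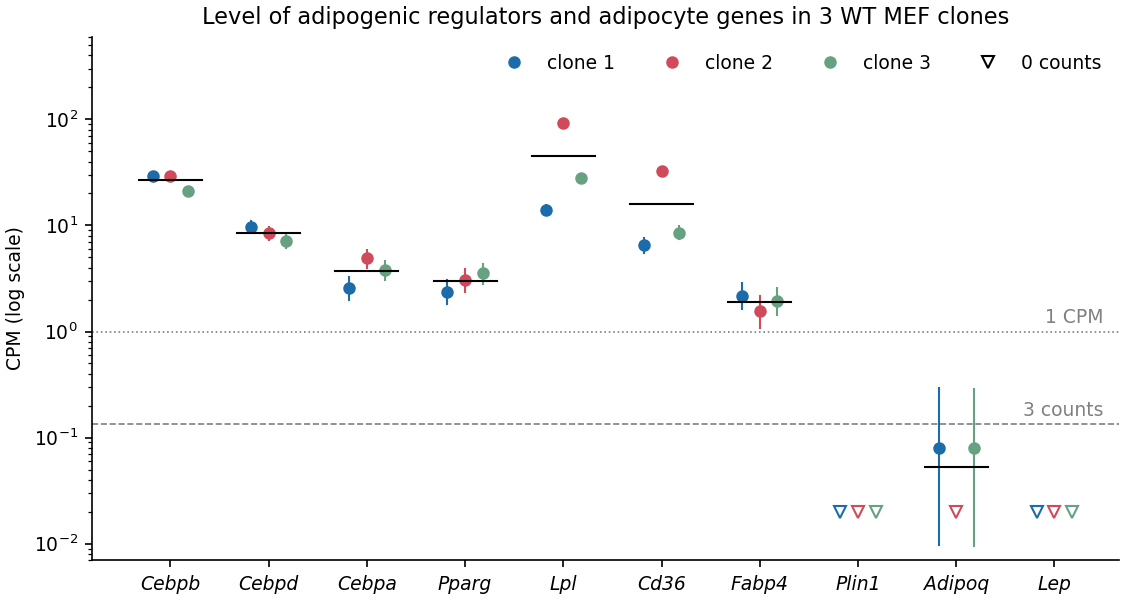
Level of each of the 10 genes in CPM (log axis) in clones 1, 2 and 3 (points), with exact Poisson 95% intervals of the count (vertical lines) and the mean of the clones (black bars). Open triangles mark 0 counts and are placed at an arbitrary height. The 4 regulators vary by at most 1.89-fold between clones, Lpl and Cd36 spread over 6.67-fold and 5.03-fold, and Plin1, Adipoq and Lep stay under the level of 3 counts.

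Cebpb, the gene of C/EBPβ (ENSMUSG00000056501.3, chromosome 2 of GRCm38, 167688915 to 167690418, plus strand), gave 728, 663 and 531 counts in the libraries of clones 1, 2 and 3 and averaged 26.6 ± 4.81 CPM (SD, n = 3). Clones 1 and 2 were almost equal at 29.3 and 29.4 CPM, and clone 3 was lower at 21.0 CPM. Cebpd, the gene of C/EBPδ (ENSMUSG00000071637.5, chromosome 16, 15887286 to 15891031, plus strand), had 242, 190 and 180 counts, or 8.43 ± 1.31 CPM. It was highest in clone 1 and lowest in clone 3, at 9.74 and 7.13 CPM. Both are genes of a single exon, and annotated exons of genes on the opposite strand cover 20.7% of Cebpb (Tmem189) and 15.0% of Cebpd (Spidr). The strand setting of the counting is not named in the sources, so that the effect on these counts was not tested.

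Cebpa, the gene of C/EBPα (ENSMUSG00000034957.10, chromosome 7, 35119293 to 35121928, plus strand), had 64, 110 and 96 counts in clones 1, 2 and 3, or 3.75 ± 1.15 CPM. Pparg (ENSMUSG00000000440.12, chromosome 6, 115360951 to 115490399, plus strand) had 59, 69 and 89 counts, or 2.99 ± 0.578 CPM. For both genes clone 1 was the lowest, at 2.58 CPM for Cebpa and 2.38 CPM for Pparg, whereas the highest value was in clone 2 for Cebpa and in clone 3 for Pparg. Pparg has several annotated start sites that give different isoforms, and the counts per gene do not separate them.

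The genes of the early and the late factors were not in the same ratio in every clone. In clone 1, 11.3% of the counts of all 4 genes fell on Cebpa and Pparg together (95% Wilson interval 9.51 to 13.3), with 123 counts beside 970 of Cebpb and Cebpd. This share was 17.3% (15.2 to 19.8) for clone 2 and 20.6% (18.1 to 23.4) for clone 3. The interval of clone 1 did not overlap the others, and those of clones 2 and 3 overlapped. This grouping of the 4 genes was chosen after their values were seen. Clone 1 also had the lowest level of the proliferation markers (Mki67, Top2a, Ccnb1, Cdk1, Aurkb and Plk1), whose summed level was 368, 723 and 609 CPM in clones 1, 2 and 3, and all 6 of them were lowest there. The part of proliferation in the ratio was not tested.

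Whether counts differed between the libraries by more than counting error was asked with a Pearson chi-square test of the 3 counts of each gene against the scaled library sizes, adjusted by the Benjamini-Hochberg method over the 12218 genes that reached 10 counts in each of the clones. Of the 10 genes, 7 had enough counts to be tested, and 5 of these were called at an adjusted p-value under 0.05, compared with 62.5% of all genes tested. The test compares libraries, in which clone, culture and library preparation cannot be told apart. The sources do not say whether the clones came from separate embryos. The p-values concern only whether the counts of these libraries differ by more than counting error, and such a difference may be technical. They do not measure its size. The chi-square test called Cebpb (adjusted p = 1.87e-09), Cebpd (adjusted p = 0.0116) and Cebpa (adjusted p = 0.000513), at ratios of 1.40, 1.37 and 1.89 between the highest and the lowest clone. Pparg, with a ratio of 1.48, was not called (chi-square test, adjusted p = 0.0906). The median ratio was 1.48 for the 7 genes, which is the value of Pparg, and 1.24 for all genes tested. Counting error alone widens this ratio at low counts, and genes of like counts were not compared.

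The calls of Cebpa, Cebpb and Cebpd depended on which clones were included. Without clone 1, Cebpa (adjusted p = 0.167 in the chi-square test) and Cebpd (adjusted p = 0.224) were no longer called. Without clone 3, Cebpb (adjusted p = 0.964 in the chi-square test) and Cebpd (adjusted p = 0.205) were no longer called. Between clones 1 and 3 alone, 6 of the 7 genes were called, compared with 45.3% of all genes tested in that pair. In this pair, Cebpb and Cebpd stood in clone 3 at 0.719 and 0.733 of their level in clone 1, and Cebpa and Pparg at 1.48 and 1.49 of it.

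Lpl and Cd36 were the genes with the most unequal levels. Lpl encodes lipoprotein lipase, which releases fatty acids from circulating triglycerides, and lies on chromosome 8 from 68880491 to 68907448 on the plus strand (ENSMUSG00000015568.16). Its counts were 345, 2089 and 703 for clones 1, 2 and 3, or 13.9, 92.6 and 27.8 CPM. Clone 2 was 6.67-fold above clone 1, and the mean of 44.8 ± 42.0 CPM (SD, n = 3) does not stand for any of the clones. Of all genes tested, 0.352% had a larger ratio between the highest and the lowest clone.

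Cd36, the gene of a membrane receptor that takes up fatty acids (ENSMUSG00000002944.15, chromosome 5, 17781690 to 17888801, minus strand), had 161, 735 and 216 counts, or 6.48, 32.6 and 8.55 CPM in clones 1, 2 and 3. Its order of clones was that of Lpl, with a ratio of 5.03 between clones 2 and 1, and 0.958% of all genes tested had a larger one. Both genes differed between libraries, with a chi-square statistic (2 degrees of freedom) of 1909 for Lpl and 642 for Cd36. They were the 2 of the 7 genes that were called with a ratio of at least 2, compared with 7.93% of all genes tested. With Cebpa and Cebpb, 4 of the 7 were called and highest in clone 2, compared with 23.5% of all genes tested. Cebpb is among these by 29.4 against 29.3 CPM. Without clone 2, the mean level fell from 44.8 to 20.9 CPM for Lpl and from 15.9 to 7.52 CPM for Cd36.

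Like Lpl and Cd36, the macrophage markers were highest in clone 2. Macrophages also express Lpl and Cd36, through which they take up lipid. Expression in macrophages is not particular to this pair among the genes described here, and Fabp4 was lowest in clone 2. Of 12 markers listed, 11 were found by symbol (all but Adgre1), and none of them was at 0 in any clone. All 11 were called and highest in clone 2, compared with 23.5% of all genes tested. Per kb, Lyz2 (lysozyme) and the complement genes C1qa and C1qb were the highest, and Tyrobp (8.30) and C1qb (7.34) had the largest ratios between clones. Their summed levels were 390, 1881 and 325 CPM for clones 1, 2 and 3. Relative to the mean of clones 1 and 3, clone 2 held 4.44 times the Lpl level and 4.34 times the Cd36 level, and 4.40 to 7.02 times the level of the single markers, with a median of 5.17. Over all genes tested, the median of this ratio was 0.998, and 0.843% of genes were above Lpl. The other 5 tested genes ranged from 0.755 for Fabp4 to 1.53 for Cebpa, with 1.17 for Cebpb, 1.04 for Pparg and 0.999 for Cebpd.

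**Figure D2:**
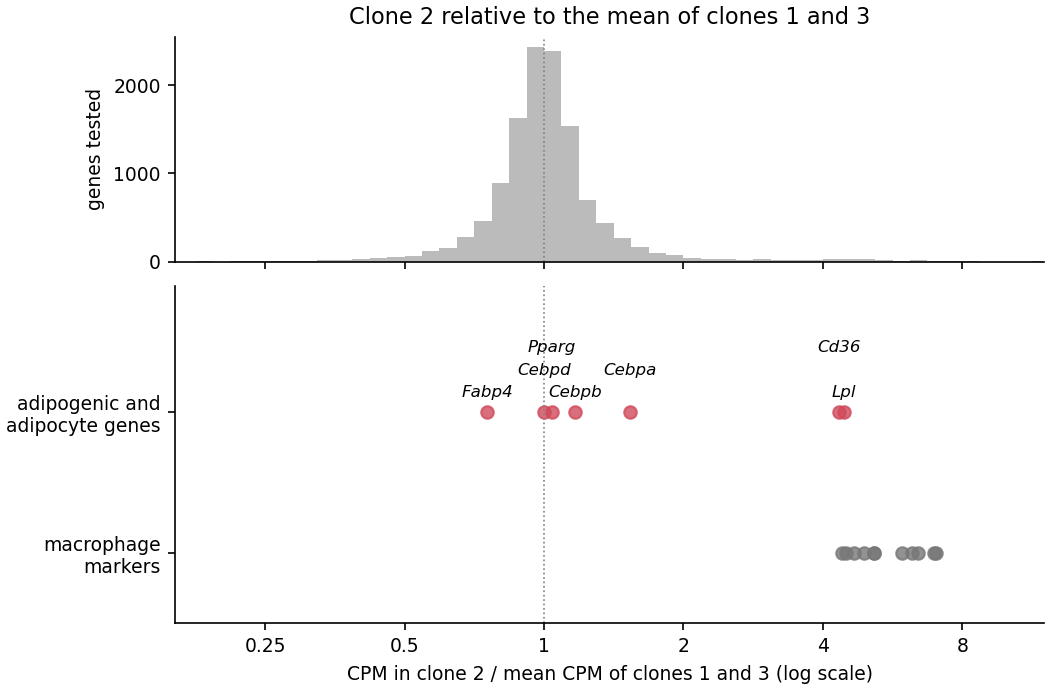
CPM in clone 2 divided by the mean CPM of clones 1 and 3 (log axis). The upper panel counts all 12218 genes tested, and the lower panel has 1 point for each of the 7 adipogenic and adipocyte genes with enough counts and each of the 11 macrophage markers. Lpl and Cd36, at 4.44 and 4.34, stand beside the lowest of the macrophage markers at 4.40, and the other 5 genes lie between 0.755 and 1.53.

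Between clones 1 and 3 the genes and the markers did not run in parallel. Lpl was 2.01 times as high in clone 3 as in clone 1 and was called in this pair (chi-square test, adjusted p = 6.77e-26), and Cd36 was 1.32 times as high (chi-square test, adjusted p = 0.0185). The summed macrophage markers stood in clone 3 at 0.832 of their level in clone 1, with single markers between 0.714 and 1.12. Lpl had 29.6%, 41.8% and 58.1% of the counts of Csf1r, the gene of the macrophage growth factor receptor, in clones 1, 2 and 3, and Cd36 had 13.8%, 14.7% and 17.9%. How much of either gene's counts macrophages gave was not tested, and in bulk RNA a larger number of such cells and more RNA per cell cannot be told apart. Of the 86-nt stretches of the Lpl transcript, 1.62% also occur in transcripts of other genes. For Csf1r, 17.1% are shared with Hmgxb3, and annotated exons on the opposite strand cover 15.1% of its exons. No such stretch was found for Cd36, Cebpa, Pparg, Fabp4, Plin1, Adipoq or Lep.

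Fabp4 encodes the fatty acid-binding protein of adipocytes, also known as aP2, and is a target of PPARγ (ENSMUSG00000062515.3, chromosome 3, 10204088 to 10208576, minus strand). It had 54, 35 and 49 counts in clones 1, 2 and 3, or 1.89 ± 0.314 CPM. Clone 2 was the lowest, and at these counts no difference between the libraries beyond counting error was detected (chi-square test, adjusted p = 0.361).

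Plin1, the gene of the perilipin that coats the lipid droplet of fat cells (ENSMUSG00000030546.14, chromosome 7, 79720218 to 79732903, minus strand), had 0 counts in every clone. The same holds for Lep, the gene of leptin (ENSMUSG00000059201.12, chromosome 6, 29060220 to 29073877, plus strand). Adipoq, the gene of adiponectin (ENSMUSG00000022878.5, chromosome 16, 23146536 to 23158028, plus strand), stood at 0.0805, 0 and 0.0792 CPM for clones 1, 2 and 3. Its exact 2-sided Poisson 95% intervals reach up to 0.291, 0.164 and 0.286 CPM, so that its clones cannot be ordered at this depth.

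Levels of different genes can be compared only per length. Per kb of transcript (for each gene the one that codes for the longest protein), the order of the means was Cebpb at 17.7 ± 3.20 CPM per kb, Lpl at 10.9 ± 10.2, Cd36 at 4.67 ± 4.27, Cebpd at 2.25 ± 0.349, Fabp4 at 2.11 ± 0.350, Pparg at 1.69 ± 0.327, Cebpa at 1.43 ± 0.439 and Adipoq at 0.0412 ± 0.0357 CPM per kb (SD, n = 3). The median over all genes at 1 CPM or more in every clone was 8.51 CPM per kb. Cebpb was above Cebpd, Fabp4, Pparg and Cebpa in every clone, with ranges that did not overlap theirs. Of the neighbours in this order, Cebpa and Adipoq alone had ranges that did not overlap. Lpl was above Cebpb in clone 2 (22.5 against 19.5 CPM per kb) and below it in clones 1 and 3. The length matters most for Fabp4, whose annotated exons cover 4489 bp against a transcript of 896 nt, and which falls to 0.421 CPM per kb when all exons are counted. With all exons, Cd36 is above Lpl and Cebpa above Pparg.

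The start-site windows of these genes differ in sequence. RefSeq gives windows of 300 bases (250 before and 50 after a start site, GRCm38.p6) for 7 of the 10 genes, with 3 windows for Pparg. There is no window for Cebpd, Fabp4 or Lpl. The window of Cd36 lies within the annotated gene, whose 5′ end on the minus strand is at 17888801. Which start site gave the Cd36 counts was not tested. The dinucleotide CG, which is frequent at the start sites of many broadly expressed and developmental genes, occurs 50 times in the window of Cebpb, 29 times in that of Cebpa, 19 times in that of Lep, 3 times in that of Cd36, 2 times in that of Plin1 and not at all in that of Adipoq. The median over all 32851 windows is 7. The 3 windows of Pparg, in the order of the gene, hold 44, 13 and 2. Detected and undetected genes both had windows above and below the median. The following 4 windows show this range, 5′ to 3′ along each gene, with every CG in capitals. They are Cebpb (chr2:167688665-167688964, plus strand) and Cd36 (chr5:17835847-17836146, minus strand), which were detected, and Lep (chr6:29059971-29060270, plus strand) and Adipoq (chr16:23146286-23146585, plus strand), which were not or hardly detected.
Cebpb: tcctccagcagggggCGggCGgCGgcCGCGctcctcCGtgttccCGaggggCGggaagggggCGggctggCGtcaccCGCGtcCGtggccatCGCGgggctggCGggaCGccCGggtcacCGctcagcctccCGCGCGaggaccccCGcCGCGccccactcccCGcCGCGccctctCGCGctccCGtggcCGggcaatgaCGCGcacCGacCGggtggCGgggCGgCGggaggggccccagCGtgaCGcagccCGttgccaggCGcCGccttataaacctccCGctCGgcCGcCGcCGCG
Cd36: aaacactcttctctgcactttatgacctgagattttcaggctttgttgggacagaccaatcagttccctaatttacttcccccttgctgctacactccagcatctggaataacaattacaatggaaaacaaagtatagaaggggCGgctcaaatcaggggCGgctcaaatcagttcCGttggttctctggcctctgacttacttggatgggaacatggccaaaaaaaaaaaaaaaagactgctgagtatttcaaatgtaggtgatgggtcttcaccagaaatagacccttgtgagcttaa
Lep: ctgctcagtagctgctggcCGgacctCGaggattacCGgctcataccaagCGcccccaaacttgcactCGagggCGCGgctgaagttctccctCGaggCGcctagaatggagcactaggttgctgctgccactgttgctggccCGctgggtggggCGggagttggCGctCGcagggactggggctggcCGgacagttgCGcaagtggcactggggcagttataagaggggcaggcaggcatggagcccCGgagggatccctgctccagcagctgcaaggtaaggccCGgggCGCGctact
Adipoq: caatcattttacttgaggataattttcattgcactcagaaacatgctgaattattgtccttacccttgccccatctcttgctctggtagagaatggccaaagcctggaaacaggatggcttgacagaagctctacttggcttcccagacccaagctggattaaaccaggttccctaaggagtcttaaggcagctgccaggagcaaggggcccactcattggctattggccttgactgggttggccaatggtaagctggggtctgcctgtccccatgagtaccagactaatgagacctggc

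**Figure D3:**
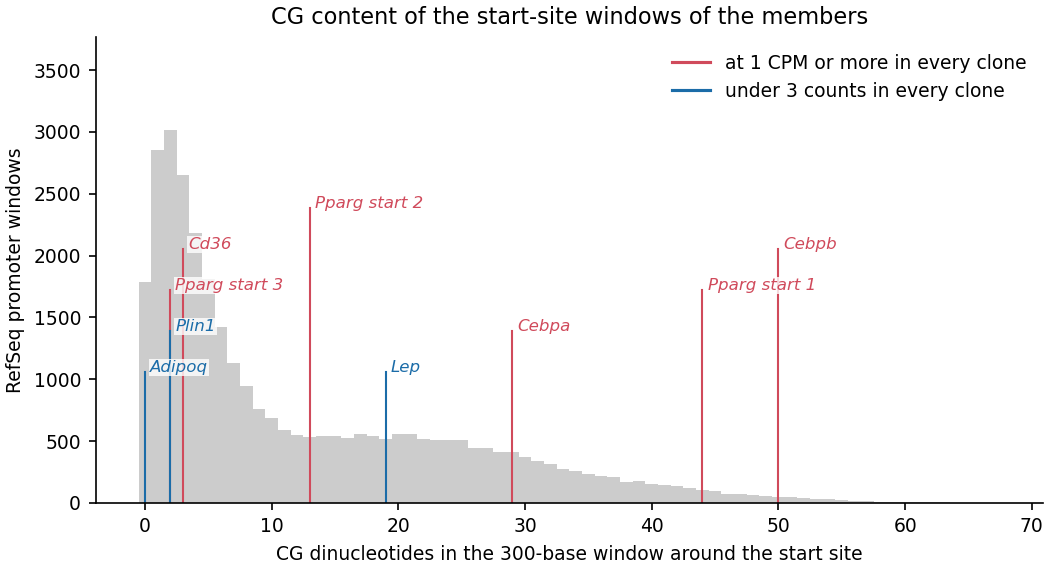
Number of CG dinucleotides in RefSeq start-site windows of 300 bases, for all 32851 windows (grey bars) and for the 9 windows of 7 of the genes (vertical lines, whose height has no meaning). Red lines belong to genes at 1 CPM or more in every clone and blue lines to genes under 3 counts in every clone. Cebpb holds 50 and the first Pparg window 44, whereas Adipoq holds 0 and Plin1 2.

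Motif letters were searched in these windows on both strands. The C/EBP-type motif TTNNGCAA occurs in 10.8% of all windows and in 3 of these 9, those of Lep and Plin1 and the third of Pparg. In the Lep window shown above, it is the palindrome TTGCGCAA that begins 55 bases before the start site, read once on each strand. Plin1 has 2 matches, beginning 187 and 58 bases before the start site, and the third Pparg window has 2, at 215 and 16 bases. The nuclear receptor motif AGGTCA occurs in 16.3% of all windows, and here in that of Cd36 and in the first 2 of Pparg. TATAAA occurs in 13.6% of all windows and in those of Cebpa (30 bases before the start site), Cebpb (21 bases after it) and the second of Pparg. CCAAT occurs in 37.4% of all windows and here in those of Adipoq (3 times, all within the last 34 bases before the start site), Cd36 (1 time) and the second (1 time) and the third (2 times) of Pparg. A match of letters is not evidence of binding, and no binding data were analysed here.

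Pparg, Fabp4 and Plin1 took at most 9.23% of the counts of their gene families in every clone, and Cebpb took a larger share. Of the counts of the 3 PPAR genes, Pparg took 6.04%, 8.90% and 9.23% for clones 1, 2 and 3 (95% Wilson intervals 4.71 to 7.71, 7.10 to 11.1 and 7.56 to 11.2), and the broadly expressed Ppard took 90.9% ± 1.80 (SD, n = 3). Ppara, the form that is abundant in liver, had 10, 10 and 9 counts. Counted per kb of transcript, a setting added once the values were known, the Pparg share was 14.0% ± 2.88. Of the RXR partners, Rxrb stood at 16.8 ± 1.05 and Rxra at 8.48 ± 0.234 CPM per kb, neither under 951 counts in any clone, and Rxrg had 0, 0 and 4 counts.

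In the C/EBP family of 6 genes, Cebpb took 26.9%, 34.0% and 24.6% of the counts in clones 1, 2 and 3, Cebpd 9.02% ± 0.704 and Cebpa 4.15% ± 1.66. Shares of counts are not corrected for length. Per kb of transcript, the mean shares of Cebpd and Cebpa were 3.84% and 2.59%, and per kb of all exons 5.265% and 3.48%. Ddit3, which encodes the stress-induced member CHOP that pairs with other C/EBPs and hinders their DNA binding, had 1057, 400 and 699 counts, or 39.1%, 20.5% and 32.4% of the family. Per kb of transcript, Ddit3 stood at 47.8, 19.9 and 31.1 CPM per kb and Cebpb at 19.5, 19.5 and 14.0, so that they were apart in clones 1 and 3 and nearly level in clone 2. This order depends on the length used, since per kb of all exons the means were 17.1 ± 7.29 for Ddit3 and 17.7 ± 3.20 for Cebpb. Cebpg gave 611, 586 and 651 counts and differed little between clones (ratio 1.06), and Cebpe, a granulocyte factor, had 0 counts in all of them.

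Fabp4 took 2.91% ± 0.830 (SD, n = 3) of the counts of 10 fatty acid-binding protein genes. Fabp5, the epidermal form that macrophages also express, had 1109, 1495 and 1458 counts and took 84.3% ± 6.64, although 10.4% of its 86-nt stretches also occur in pseudogene transcripts. Its mean share was 82.3% per kb of transcript and 62.15% per kb of all exons, where Fabp3 took 12.1% and 31.3%. Fabp3, the heart and muscle form, had 230, 73 and 185 counts and varied 2.86-fold, with its lowest level in clone 2. For Fabp3, 23.2% of the stretches are shared with a pseudogene. Fabp1, Fabp2, Fabp6, Fabp9 and Fabp12 had 0 counts. Among the 5 perilipin genes, Plin2, which coats lipid droplets in many cell types, had 4506, 4069 and 3378 counts and took 76.2% ± 2.48, and Plin3 took 23.0% ± 2.23. Plin1 had 0 of 5881, 5192 and 4598 perilipin counts in clones 1, 2 and 3. By the limit of 3 counts, its share could have been up to 0.051%, 0.0578% and 0.0652%. Plin4 had 70, 19 and 46 counts and Plin5 0, 0 and 1.

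**Figure D4:**
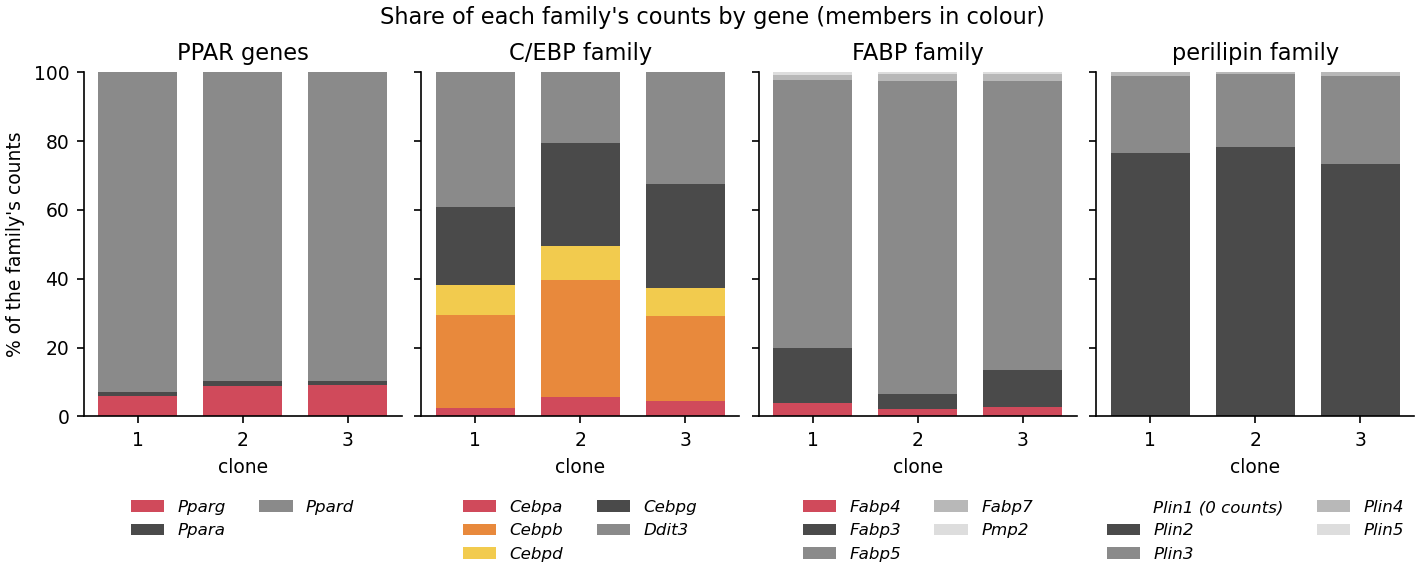
Share of the counts of each gene family taken by each gene (stacked bars, percent) in clones 1, 2 and 3. The adipogenic and adipocyte genes are in colour and their relatives in grey, and genes with 0 counts in every clone are left out. Pparg takes 6.04% to 9.23% of PPAR counts, Fabp4 2.13% to 3.78% of FABP counts and Plin1 none of the perilipin counts.

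The receptors of adiponectin and leptin were detected. Adipor1 and Adipor2, which bind adiponectin, stood at 41.1 ± 2.49 and 11.7 ± 1.83 CPM per kb, and Cdh13, which also binds adiponectin, had 223, 355 and 240 counts. Lepr, the leptin receptor, had 52, 51 and 44 counts. Beside Adipoq and Lep, the adipokine genes Retn (resistin) and Cfd (adipsin) had 1, 0 and 0 and 2, 0 and 0 counts. In the list of 11 lipid uptake genes, 9 were tested, 7 were called and 6 of these were highest in clone 2, Lpl and Cd36 among them. Over all genes tested, 62.5% were called and 23.5% were called and highest in clone 2. After Lpl and Cd36, the largest ratio was that of Angptl4, a secreted inhibitor of lipoprotein lipase, with 489, 687 and 339 counts and a ratio of 2.27. Lmf1, which is needed for the folding of the lipase, had 703, 597 and 635 counts and was not called (chi-square test, adjusted p = 0.134). Gpihbp1, which anchors the lipase to the capillary wall, had 0 counts in every clone. Scarb1 (32.4 ± 6.56), Slc27a4 (18.2 ± 0.820) and Scarb2 (16.5 ± 0.657), a lipoprotein receptor, a fatty acid transporter and a lysosomal protein related to Cd36, had the highest levels of the list in CPM per kb.

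Of 19 other genes of lipid handling and fat cell identity, 8 reached 1 CPM in every clone, compared with 52.2% of all genes listed. They were led per kb by Mgll (monoacylglycerol lipase, 44.2 ± 18.5 CPM per kb), Dgat1 (triglyceride synthesis, 20.1 ± 2.74) and Agpat2 (phosphatidic acid synthesis, 11.8 ± 0.377). Of the 11 tested, 4 were called, compared with 62.5% of all genes tested. All 4 were highest in clone 1, and 23.8% of all genes tested were called and highest there. Among them, Mgll had 2027, 751 and 1475 counts, a ratio of 2.45, and Plin4 a ratio of 3.34. Cidea and Thrsp had 0 counts in all clones. Cidec and Ucp1, the gene of the uncoupling protein of brown fat, had 2, 0 and 0 counts each. The insulin-responsive glucose transporter gene Slc2a4 had 32, 14 and 22 counts and Adrb3, the gene of a beta-adrenergic receptor of fat cells, 41, 31 and 31. Annotated exons on the opposite strand cover 24.85% of the Adrb3 exons, and the effect on its counts was not tested. These last 6 genes were picked after their values were seen.

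Among other regulators, 12 of 13 genes known to favour adipogenesis and 10 of 10 known to restrain it reached 1 CPM in every clone. Of all genes listed, 52.2% did so. Of the first list, 12 were tested and 8 called, 4 of them highest in clone 2, 3 in clone 3 and 1 in clone 1. Its highest levels per kb were those of Srebf1 (38.7 ± 3.83), the regulator of fatty acid synthesis, Nr3c1 (19.2 ± 2.01), the glucocorticoid receptor, and Klf4 (16.4 ± 4.89 CPM per kb). Klf4 had 1658, 951 and 1012 counts. Ebf2, a factor of brown and beige fat precursors, was the most unequal, with 112, 54 and 128 counts. Of the inhibitors, 9 of 10 were called, 6 of them highest in clone 2 and 3 in clone 1. Hes1, a target of Notch, had 1763, 1008 and 906 counts and Klf2 600, 643 and 601. Dlk1, the preadipocyte marker Pref-1, had 2642, 4502 and 2786 counts, or 29.8 ± 11.3 CPM per kb, and Wnt10b, a Wnt ligand that blocks adipogenesis, had 233, 97 and 168. These counts of 8 of 12 and 9 of 10 stand beside the 62.5% called among all genes tested, and their difference from it was not tested. Over all genes tested, 23.5% were called and highest in clone 2, and 23.8% were called and highest in clone 1.

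The label of the cells was checked with the same kind of lists. All 7 fibroblast markers reached 1 CPM in every clone, with summed levels of 54530, 44141 and 43079 CPM, Col1a1, Col1a2 and Thy1 being the highest per kb. All 7 were called, 5 of them highest in clone 1, whereas Pdgfra (292, 615 and 424 counts) and Thy1 were highest in clone 2. Over all genes tested, 62.5% were called, 23.8% called and highest in clone 1, and 23.5% called and highest in clone 2. At high counts the test calls small ratios, such as 1.275 for Col1a1. Of 6 endothelial markers 1 reached 1 CPM in every clone, namely Kdr with 163, 214 and 314 counts. Emcn, the highest of this list per kb, had 307, 4 and 242 counts, Pecam1 6, 15 and 6, Vwf 17, 22 and 7, Tek 9, 6 and 9 and Cdh5 4, 6 and 2. Of 6 muscle markers 1 did (Des, 1778, 701 and 2438 counts), with Actc1 at 4, 1 and 38 and Myh3 at 6, 0 and 47, and Ckm was at 0. The common biological coefficient of variation that edgeR estimated from the 3 libraries was 0.187.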

How the data were processed

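PolyA-selected RNA of asynchronous WT MEFs (3 clones, 1 library each) was sequenced in single-end reads of 86 nt. As the methods and the submitters' processing notes state, the authors checked reads with FastQC, aligned them with TopHat 2.0.0 (through Bowtie, version 0.12.7, with version 0.1.16 of Samtools) and counted them on genes with HTSeq. The methods name mm10 and the processing notes name mm9 as genome build. The gene annotation, the HTSeq version and the strand setting are not given in the sources used here. The table the authors deposited gives unnormalized read counts of each gene, in a column for every clone.

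CPM were computed with TMM factors of edgeR 4.0.16 in R 4.3.3. Genes that reached 10 counts in each of the clones were tested. A Pearson chi-square test compared the 3 counts with scaled library sizes (Benjamini-Hochberg, called under 0.05). The procedure was checked on simulated data that held counting error alone, apart from genes changed on purpose. Spread between clones was not simulated. Gene positions, exons and transcripts came from GENCODE M21 (GRCm38), which holds 96.9% of the symbols of the table, and start-site windows from RefSeq. Shares have Wilson intervals, except the limit for Plin1, which is that of 3 counts. Alternatives were DESeq2 1.42.0 size factors, total counts, other thresholds, lengths, and leaving out each clone.

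The 10 genes and all lists were chosen with earlier results of these data known. Of each list, the 3 genes with the highest CPM per kb and the 2 called genes with the largest ratio between clones were to be named, and relatives of the 10 genes freely. No gene was named for a correlation, since 3 libraries are too few for one. The genes under other observations were picked for being lowest in clone 2. Calculations used Python 3.11.15, numpy 2.4.6, pandas 2.3.3, scipy 1.17.1 and matplotlib 3.10.9.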

Additional observations from a re-analysis of the deposited data

How the results depend on the processing

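Scaling by DESeq2 size factors, or by total counts, instead of TMM left all 7 detected genes at 1 CPM or more and 5 called. Of the 7 genes tested, 3 were called without clone 1, 6 without clone 2 and 3 without clone 3. Over all genes tested, 3893 of 12294, 5627 of 12413 and 6531 of 12323 were called in the same 3 settings. With a ratio of at least 2 also required, 2 of the 7 genes and 969 genes in all were called. Lpl and Cd36 were called without any 1 of the clones. Without clone 2, Pparg was called as well (adjusted p = 0.0402 in the chi-square test). Per kb of all exons, the family share was 18.0% for Pparg, 41.5% for Cebpb and 1.65% for Fabp4, and per kb of transcript, chosen after seeing the data, that of Pparg was 14.0%. The shares ranged from 7.47% to 9.07% for Pparg, from 25.8% to 30.5% for Cebpb and from 2.48% to 3.30% for Fabp4 when a clone was left out. The depth does not allow an order of clones for Adipoq, Plin1 or Lep. No paired analysis was possible because the samples form a single group.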

Other observations

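Among the genes lowest in clone 2, where Lpl and Cd36 were highest, a few outside the adipogenic set are given here. Others, such as Mgll, Ebf2 and Col3a1, were lowest there too, and the share of such genes was not counted. Emcn, an endothelial sialomucin, had 307, 4 and 242 counts for clones 1, 2 and 3. Des, the intermediate filament gene of muscle, had 1778, 701 and 2438 counts, and Fabp3 had 230, 73 and 185. The embryonic myosin gene Myh3 had 6, 0 and 47 counts. These genes were picked after their values were seen, and no relation among them was tested.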
